A study of Mus musculus with 30 samples.

Results

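The 8 growth factor genes Igf1, Hgf, Fgf1, Vegfa, Vegfb, Pdgfa, Pdgfb and Gdf15 were followed across 5 groups of sorted splenic phagocytes. They were taken by name from a table of 37991 gene identifiers and were chosen by their normalised counts in these 5 groups, which were known from earlier results. Their own differences between groups are therefore given as a description, with no test. Of these 8 genes, 7 passed the filter on low counts that left 11030 genes for testing, and Vegfa did not. Igf1, Fgf1, Vegfb and Gdf15 were highest in red pulp macrophages, Hgf and Vegfa in inflammatory hemophagocytes, Pdgfa in wild-type red pulp macrophages, and Pdgfb was high in macrophages and hemophagocytes alike.

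The groups came from the spleens of 12 female mice aged 9.4 to 15.7 weeks, and each library was made from 500 sorted cells. TLR7.1 inflammatory hemophagocytes (iHPC), phagocytes that take up blood cells, were Ly6C-, CD31hi, VCAMlow, F4/80low and CD11b+. TLR7.1 red pulp macrophages (RPM), which clear aged red cells, were Ly6C-, CD31low, VCAMhi and F4/80+ with CD11b absent or intermediate, and TLR7.1 Ly6C-high monocytes (Mono) were Ly6C+, Ccr2+ and CD11b+. These 3 populations came from the same 6 TLR7.1 mice, a line that overexpresses Tlr7, the endosomal sensor of single-stranded RNA. WT RPM and WT Mono were sorted through the same gates from 6 wild-type B6 mice. All sorted cells were live, CD45.2+, SiglecF- and Ly6G-, and wild-type iHPC are not among the groups. Each group thus held 6 libraries, and mice were collected on 13, 21 and 26 December.

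Growth factors are secreted proteins that act through receptors on the same or neighbouring cells. IGF1 signals through the IGF1 receptor, HGF through MET, and FGF1 through the FGF receptors, although FGF1 lacks a classical secretion signal. VEGFA drives blood vessel growth through FLT1 and KDR, whereas VEGFB binds FLT1 and the co-receptor NRP1. PDGF chains pair and bind PDGFRA and PDGFRB on mesenchymal cells, and GDF15, a distant member of the TGF-beta family induced by cell stress, signals through GFRAL and RET in the brainstem. Tissue macrophages are known sources of IGF1, PDGF and VEGF in repair.

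Library totals ran from 292507 to 1420486 counts in iHPC, 268275 to 1257240 in TLR7.1 RPM, 1157446 to 1719010 in TLR7.1 Mono, 95002 to 1511480 in WT RPM and 1209266 to 1932427 in WT Mono. Levels are read counts scaled to library size with TMM factors (normalised CPM), and ± after a level is the SD over 6 libraries. The level of Tlr7 was above that of every WT library in all TLR7.1 libraries of the matching population. Summed over 9 red pulp macrophage markers, the level was 1335 to 2173 CPM in iHPC, 6505 to 13882 in TLR7.1 RPM and 679 to 856 in TLR7.1 Mono, with Timd4 and Siglec1 at 0 counts in iHPC. Summed over 8 monocyte markers it was 182 to 369 CPM in iHPC, 59.8 to 201 in TLR7.1 RPM and 5748 to 6843 in TLR7.1 Mono. In WT mice the macrophage markers summed to 8732 to 16507 CPM in RPM and the monocyte markers to 4950 to 6906 CPM in Mono. Basophil and mast cell markers summed to 2850 to 5026 CPM in 5 iHPC libraries and to 131 CPM in the sixth, from mouse 24261, against at most 23.4 CPM in every other library. In bulk libraries such as these, a gene read in fewer cells cannot be told apart from less of its RNA per cell.

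Promoter windows are shown for Igf1, the gene with the highest level, for Gdf15, another gene highest in RPM, and for Hgf and Vegfa, whose means were highest in iHPC. RefSeq held a window for 6 of the 8 genes, and Fgf1 and Pdgfb are named only. Each sequence covers the 250 bases before an annotated start, 5′ to 3′ on the gene's strand, in build GRCm38.p6. RefSeq listed 2 windows each for Gdf15, Hgf and Vegfa, and only the first listed window of a gene was searched. The Igf1 window lies at chr10:87860861-87861110 on the plus strand, that of Gdf15 at chr8:70632457-70632706 on the minus strand, that of Hgf at chr5:16553245-16553494 on the plus strand and that of Vegfa at chr17:46032378-46032627 on the minus strand. Capitals mark matches to the PU.1 core or the AP-1 motif, both described after the sequences.
Igf1: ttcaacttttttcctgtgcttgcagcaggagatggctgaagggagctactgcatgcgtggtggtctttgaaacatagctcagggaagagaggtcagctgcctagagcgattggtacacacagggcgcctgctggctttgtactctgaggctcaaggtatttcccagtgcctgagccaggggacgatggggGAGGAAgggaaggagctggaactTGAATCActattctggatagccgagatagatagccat
Gdf15: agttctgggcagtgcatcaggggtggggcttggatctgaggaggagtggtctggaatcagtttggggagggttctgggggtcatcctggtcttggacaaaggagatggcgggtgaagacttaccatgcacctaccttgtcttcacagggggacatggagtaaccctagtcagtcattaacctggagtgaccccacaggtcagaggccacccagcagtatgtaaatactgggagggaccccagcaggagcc
Hgf: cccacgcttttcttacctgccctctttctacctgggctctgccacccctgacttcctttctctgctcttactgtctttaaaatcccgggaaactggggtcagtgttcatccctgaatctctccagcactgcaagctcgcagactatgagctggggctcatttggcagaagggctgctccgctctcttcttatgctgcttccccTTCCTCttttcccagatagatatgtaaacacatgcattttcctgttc
Vegfa: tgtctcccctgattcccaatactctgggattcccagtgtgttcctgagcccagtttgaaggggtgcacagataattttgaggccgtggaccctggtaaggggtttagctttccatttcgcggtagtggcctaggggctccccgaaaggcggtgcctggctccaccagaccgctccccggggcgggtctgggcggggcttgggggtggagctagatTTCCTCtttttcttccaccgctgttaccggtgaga
The search covered both strands for the PU.1 core GAGGAA, the AP-1 motif TGANTCA, the hypoxia response core ACGTG, the C/EBP-ATF composite TGATGNAA and the STAT motif TTCNNNGAA. PU.1 is a transcription factor of the macrophage lineage, and AP-1 is the dimer of Fos and Jun proteins. The PU.1 core stood 60 to 55 bases before the start of Igf1 as GAGGAA, and on the other strand, as TTCCTC, 47 to 42 bases before that of Hgf and 35 to 30 bases before that of Vegfa. It occurs in 23.1% of 27025 windows of the same length. The AP-1 match TGAATCA lay 37 to 31 bases before the start of Igf1, and this motif occurs in 6.87% of windows. The other 3 motifs, held by 16.6%, 3.53% and 7.18% of windows in the order given, had no match in any of the 6 windows, and the Gdf15 window matched none of the 5. The PU.1 core was thus present in the windows of Igf1, Hgf and Vegfa, and a match of these letters shows no binding. Pdgfb, whose mean was also highest in iHPC, had no window to search.

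Igf1 (ENSMUSG00000020053, chromosome 10) was abundant in red pulp macrophages and near the limit of detection in iHPC. Its level was 0, 3.96 and 5.55 CPM at the lowest, median and highest iHPC library, 754, 1072 and 1297 CPM in TLR7.1 RPM, and 0, 2.28 and 11.7 CPM in TLR7.1 Mono. In WT mice it was 1011, 1451 and 1729.8 CPM in RPM and 0.515, 3.54 and 6.84 CPM in Mono. No RPM library of either genotype overlapped any library of the other populations, whereas iHPC and Mono covered the same range. The log2 fold change was -8.02 ± 0.41 (SE) for iHPC over TLR7.1 RPM, 8.33 ± 0.40 for RPM over Mono in TLR7.1 mice and 8.61 ± 0.40 in WT mice. Against TLR7.1 Mono, iHPC differed by 0.31 ± 0.57 on the log2 scale, less than its error. All 6 TLR7.1 mice had less Igf1 in their iHPC than in their own RPM. Within RPM the mean was 1038 ± 198 CPM in TLR7.1 and 1373 ± 280 CPM in WT mice, a log2 fold change of -0.40 ± 0.26 with overlapping ranges. On each of the 3 collection dates the TLR7.1 RPM mean was below the WT mean, with differences of -0.64 to -0.07 on the log2(CPM + 1) scale. The WT side of 21 December was 1 library, of mouse 24323.

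Per kilobase of exon, which allows levels of different genes to be compared, Igf1 led the 8 genes with 105 CPM per kilobase in TLR7.1 RPM and 139 in WT RPM. Vegfb followed in TLR7.1 RPM with 62.4 CPM per kilobase, against 32.9 in WT RPM, and Gdf15 had 22.5 in TLR7.1 RPM and 35.2 in WT RPM. In iHPC the order was different, with Pdgfb at 24.1, Vegfb at 9.24, Vegfa at 4.73 and Hgf at 3.76 CPM per kilobase, and Igf1 at 0.354. In TLR7.1 Mono no gene exceeded the 2.14 CPM per kilobase of Vegfb, and in WT Mono none exceeded the 3.23 of Pdgfb.

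**Figure D1:**
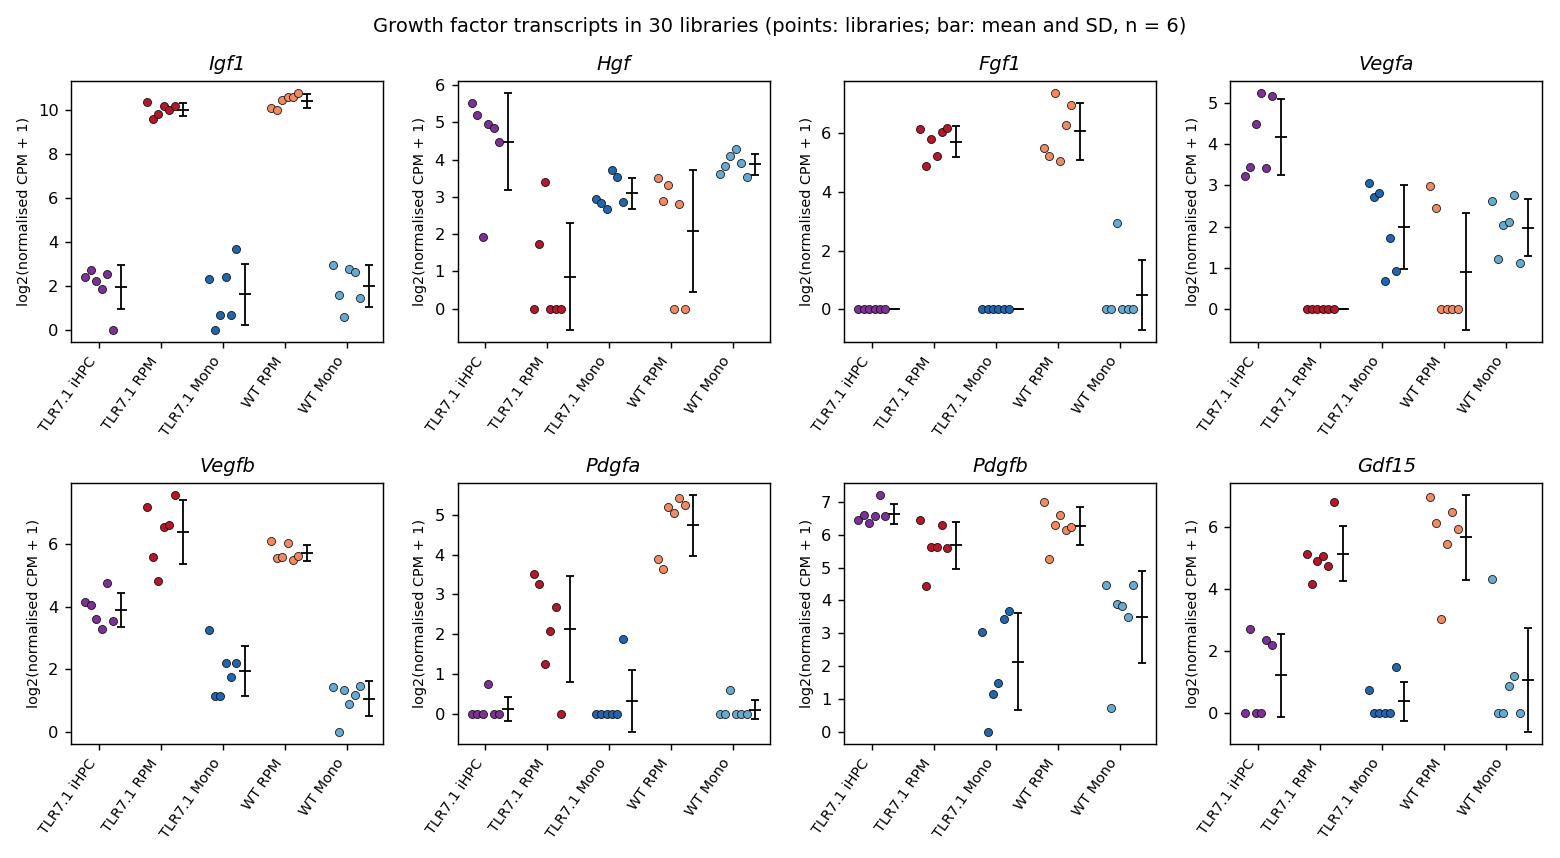
Level of each of the 8 genes by group, as log2(normalised CPM + 1), with 1 point per library and a bar for the mean and SD of 6 libraries on that scale. RPM libraries of both genotypes stand above all others for Igf1 and Fgf1, iHPC libraries stand above all others for Vegfa, and WT RPM libraries stand above all others for Pdgfa.

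Hgf (ENSMUSG00000028864, chromosome 5), which encodes the ligand of MET, went the other way from Igf1. Its level was 2.78, 29.0 and 44.7 CPM at the lowest, median and highest iHPC library, 0, 0 and 9.61 CPM in TLR7.1 RPM, and 5.39, 6.46 and 12.1 CPM in TLR7.1 Mono. In WT mice it was 0, 6.20 and 10.3 CPM in RPM and 10.6, 13.6 and 18.4 CPM in Mono. In 5 of 6 iHPC libraries Hgf was above every other library, and the exception was the library of mouse 24261. That mouse also had the highest Hgf of any TLR7.1 RPM library and was the only TLR7.1 mouse with less Hgf in iHPC than in RPM. The log2 fold change was 3.55 ± 0.71 for iHPC over TLR7.1 RPM and 1.77 ± 0.59 for iHPC over TLR7.1 Mono. Without mouse 24261 these values were 5.26 and 1.93, and the iHPC mean was 31.9 ± 8.83 CPM (SD, n = 5) in place of 27.0 ± 14.3 CPM (n = 6).

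The iHPC library with little Hgf was the library with few basophil and mast cell transcripts. Mouse 24261 had 2.78 CPM of Hgf beside a marker sum of 131 CPM, and the other 5 iHPC libraries had 21.1 to 44.7 CPM of Hgf beside sums of 2850 to 5026 CPM. All 10 markers of that list had counts in iHPC, and 5 of them, among them Ms4a2, were at 0 in TLR7.1 RPM. Among the 5 libraries the highest marker sum, in mouse 24107, went with 35.5 CPM of Hgf and the highest Hgf, in mouse 24068, with a sum of 3544 CPM. Mono libraries had up to 18.4 CPM of Hgf with marker sums of at most 17.0 CPM. The part of these cells in the Hgf level of iHPC was not tested.

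**Figure D2:**
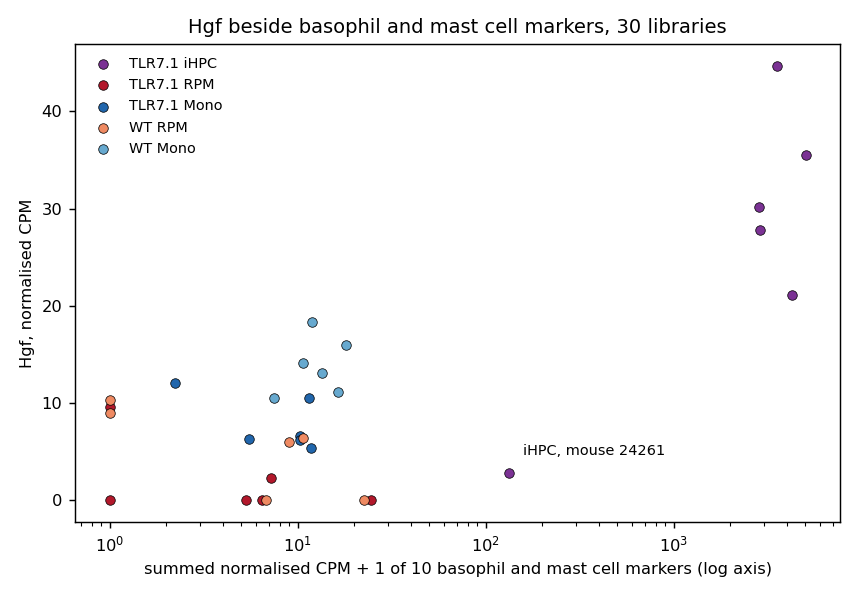
Hgf level (normalised CPM) against the summed level of 10 basophil and mast cell markers (normalised CPM + 1, log axis) in 30 libraries, coloured by group. The iHPC library of mouse 24261 lies at 131 CPM of markers and 2.78 CPM of Hgf, apart from the other 5 iHPC libraries at 2850 to 5026 CPM of markers.

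Fgf1 (ENSMUSG00000036585, chromosome 18), which encodes the acidic fibroblast growth factor, was read in RPM and almost nowhere else. All 6 iHPC and all 6 TLR7.1 Mono libraries held 0 counts. TLR7.1 RPM held 28.7, 60.0 and 71.8 CPM at the lowest, median and highest library. WT RPM held 32.1, 61.2 and 166 CPM, and the 13 counts of WT Mono were all in mouse 24214, at 6.70 CPM. With a floor of 3 counts over the 6 libraries of a group at 0, Fgf1 was at least 98.5-fold lower in iHPC than in TLR7.1 RPM and at least 148-fold higher in TLR7.1 RPM than in TLR7.1 Mono. Floors and counting intervals carry counting error alone, because PCR copies were not marked and reads need not be separate molecules. Between genotypes, the RPM means of 54.5 ± 18.2 CPM in TLR7.1 and 79.9 ± 54.2 CPM in WT mice differed by less than their spread.

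The paralogues Vegfa and Vegfb were distributed differently. Vegfa (ENSMUSG00000023951, chromosome 17) had 8.43, 15.6 and 36.9 CPM at the lowest, median and highest iHPC library, 0 counts in all 6 TLR7.1 RPM libraries, and 0.606, 3.94 and 7.27 CPM in TLR7.1 Mono. WT RPM had 11 counts of Vegfa, all in mice 24028 and 24117, and WT Mono had 1.17 to 5.76 CPM. All iHPC libraries were above all other libraries, by a narrow margin, since the lowest iHPC library had 8.43 CPM and the highest TLR7.1 Mono library 7.27 CPM. Vegfa was at least 29.0-fold higher in iHPC than in TLR7.1 RPM by the same floor. In a fit without the filter its log2 fold change over TLR7.1 Mono was 2.32 ± 0.73. When all libraries were thinned to 95002 counts, 8 Vegfa counts remained in iHPC, 4 in Mono and 0 in RPM of the same mice, and the separation was not detectable at that depth.

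Vegfb (ENSMUSG00000024962, chromosome 19) was instead highest in RPM, with iHPC between RPM and Mono. Its level was 8.72, 13.3 and 26.2 CPM at the lowest, median and highest iHPC library, 27.5, 94.3 and 191 CPM in TLR7.1 RPM, and 1.20, 2.97 and 8.59 CPM in TLR7.1 Mono. WT RPM had 43.8, 47.8 and 67.1 CPM and WT Mono 0, 1.41 and 1.76 CPM. No ranges overlapped among the 3 TLR7.1 populations, but the margins were narrow. The highest iHPC library had 26.2 CPM against 27.5 CPM in the lowest TLR7.1 RPM library, and the lowest iHPC library 8.72 CPM against 8.59 CPM in the highest TLR7.1 Mono library. After thinning to 95002 counts, 13 Vegfb counts remained in iHPC, against 59 in RPM and 2 in Mono of the same mice, and iHPC overlapped both. The log2 fold change was -2.69 ± 0.44 for iHPC over TLR7.1 RPM and 2.12 ± 0.48 for iHPC over TLR7.1 Mono, with the same direction in 6 of 6 mice each. The spread of Vegfb within RPM was wider in TLR7.1 mice, at 100.1 ± 60.9 CPM in TLR7.1 and 52.7 ± 10.2 CPM in WT mice. The TLR7.1 RPM libraries with the highest Vegfb, of mice 24380 (191 CPM) and 24068 (146 CPM), also had the highest sums of 8 endothelial markers, 494 and 419 CPM against 122 to 231 CPM in the other 4. Libraries 24380 and 24068 also had the highest red pulp macrophage marker sums, 13882 and 12496 CPM against 6505 to 10057 CPM in the other 4. Their totals, 268275 and 403494 counts, were the lowest of TLR7.1 RPM. Whether Vegfb followed depth or the macrophage markers was not tested. WT RPM had endothelial sums of 321 to 503 CPM. Nearly all of the TLR7.1 RPM sum came from Stab2 (272 ± 149 CPM), while 6 of the markers, among them Cdh5 and Tek, were at 0 counts there, and the part of endothelial RNA in the Vegfb level was not tested. The log2 fold change of Vegfb for TLR7.1 RPM over WT RPM was 0.91 ± 0.42, and ranges overlapped. The TLR7.1 mean was higher on each of the 3 dates by 0.55 to 0.64 on the log2(CPM + 1) scale. On 21 December, however, WT RPM was 1 library, of mouse 24323, with 6 Vegfb counts. On 26 December the 2 TLR7.1 RPM libraries had 27.5 and 191 CPM, against 43.8 to 48.8 CPM in the 3 WT RPM libraries.

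Pdgfa (ENSMUSG00000025856, chromosome 5) encodes the PDGF-A chain and was read mainly in WT RPM. iHPC held 1 count in all, TLR7.1 RPM 0, 4.32 and 10.4 CPM at the lowest, median and highest library, and TLR7.1 Mono 3 counts, all in mouse 24380. WT RPM had 11.6, 34.1 and 41.8 CPM, and WT Mono held 1 count. The ratio of pooled CPM of iHPC to TLR7.1 RPM was 0.0305 (95% counting interval 0.000741 to 0.187). Every TLR7.1 RPM library was below every WT RPM library, which was true of no other of the 8 genes and of 0.644% of all genes tested. The means were 4.83 ± 4.08 CPM in TLR7.1 RPM and 28.8 ± 12.9 CPM in WT RPM, a log2 fold change of -2.46 ± 0.71. It stayed between -2.74 and -2.25 when any of the 12 mice was left out and was -2.14 with collection date as a term. After thinning to 95002 counts 2 Pdgfa counts remained in TLR7.1 RPM and 13 in WT RPM, and the ranges overlapped. At full depth the margin was narrow, 10.4 CPM in the highest TLR7.1 RPM library against 11.6 CPM in the lowest WT RPM library, and the difference within dates ran from -4.67 to -0.39 on the log2(CPM + 1) scale. In TLR7.1 RPM Pdgfa rested on 24 counts and in WT RPM on 83. The gene 6330403L08Rik overlaps its exons on the other strand, and reads of the pair cannot be told apart because the strand setting is not given in the sources used here.

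Pdgfb (ENSMUSG00000000489, chromosome 15), the PDGF-B chain, was the growth factor that iHPC and RPM shared. It had 80.5, 95.2 and 149 CPM at the lowest, median and highest iHPC library, 20.9, 48.2 and 85.9 CPM in TLR7.1 RPM, and 0, 4.54 and 11.7 CPM in TLR7.1 Mono. WT RPM had 37.3, 76.0 and 127 CPM and WT Mono 0.654, 13.6 and 21.4 CPM. iHPC were above TLR7.1 Mono in every library, by 4.26 ± 0.55 on the log2 scale, and overlapped RPM of both genotypes. Over TLR7.1 RPM the log2 fold change was 0.89 ± 0.47, with iHPC the higher in 6 of 6 mice. Platelets store PDGF, and 10 megakaryocyte and platelet markers summed to 150 to 261 CPM in iHPC, 12.0 to 114 CPM in TLR7.1 RPM and at most 18.1 CPM in TLR7.1 Mono. The iHPC library with the highest Pdgfb, mouse 24308 at 149 CPM, had the lowest of these platelet sums in iHPC. The same library stood apart for 4 eosinophil markers, with a sum of 740 CPM, mostly from Prg2, against 3.52 to 51.7 CPM in the other 5, and it had the highest Vegfb of iHPC. These 4 markers summed to 788 to 1240 CPM in TLR7.1 RPM and 1072 to 2173 CPM in WT RPM. One of them, Epx, was at 0 counts in RPM of both genotypes, so the list is not particular to eosinophils in these cells. Without mouse 24308 the log2 fold change of Pdgfb was 0.88 for iHPC over TLR7.1 RPM and 4.42 for iHPC over TLR7.1 Mono, and that of Vegfb was -2.95 and 1.77. The parts of platelet and eosinophil RNA in these levels were not tested.

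Gdf15 (ENSMUSG00000038508, chromosome 8) was an RPM transcript with a wide spread. Its level was 0, 1.76 and 5.55 CPM at the lowest, median and highest iHPC library, 17.1, 30.5 and 112 CPM in TLR7.1 RPM, and 0, 0 and 1.802 CPM in TLR7.1 Mono. WT RPM had 7.20, 64.5 and 124 CPM and WT Mono 0, 0.418 and 18.8 CPM, and WT ranges overlapped through the Mono library of mouse 24028. The log2 fold change was -4.29 ± 0.98 for iHPC over TLR7.1 RPM, and iHPC were lower in 6 of 6 mice. TLR7.1 RPM stood above TLR7.1 Mono, with its 3 counts, by a ratio of 94.7 (95% counting interval 31.7 to 465). In the RPM library of mouse 24380, which had the highest Gdf15 of its group, 12 erythroid markers summed to 4912 CPM, the highest of its group too, against 2244 to 3513 CPM in the other 5. In WT RPM the highest erythroid sum, 5556 CPM in mouse 24323, went with a Gdf15 level of 42.8 CPM, and the highest Gdf15, in mouse 24028, with a sum of 2392 CPM. The part of red cell RNA in Gdf15 was not tested.

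Counted together, 1 of the 8 genes (Vegfa) was higher and 4 (Igf1, Fgf1, Vegfb and Gdf15) were lower in all 6 iHPC libraries than in all 6 TLR7.1 RPM libraries. Among all genes tested, 6.07% were higher and 5.09% lower by that rule. Vegfa did not pass the filter, so it is counted among the 8 genes but not in this or the following shares. Against TLR7.1 Mono, 3 genes (Vegfa, Vegfb and Pdgfb) were higher in all iHPC libraries and 0 lower, and 14.2% and 17.8% of all genes were so placed. For RPM over Mono, 5 genes (Igf1, Fgf1, Vegfb, Pdgfb and Gdf15) were higher and 1 lower in TLR7.1 mice, where 12.6% and 14.6% of all genes were. The counts in WT mice were also 5 higher, with Pdgfa in place of Gdf15, and 1 lower, beside 11.1% and 15% of all genes. The lower gene was Vegfa in TLR7.1 mice and Hgf in WT mice. Between genotypes, 1 of the 8 genes was lower in all TLR7.1 RPM libraries, where 0.644% of all genes were lower and 1.08% higher, and 0 were apart in Mono, where 3.04% were higher and 1.13% lower. After thinning to 95002 counts these counts were 0 higher and 3 lower for iHPC over TLR7.1 RPM and 1 higher and 0 lower for iHPC over TLR7.1 Mono. For RPM over Mono they were 5 higher in TLR7.1 mice and 4 higher in WT mice, with 0 lower in both, and 0 genes were apart between genotypes in either population. The genes were chosen with these contrasts known, so nothing is read from these counts. Comparisons that involve the same TLR7.1 libraries are not independent of each other.

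**Figure D3:**
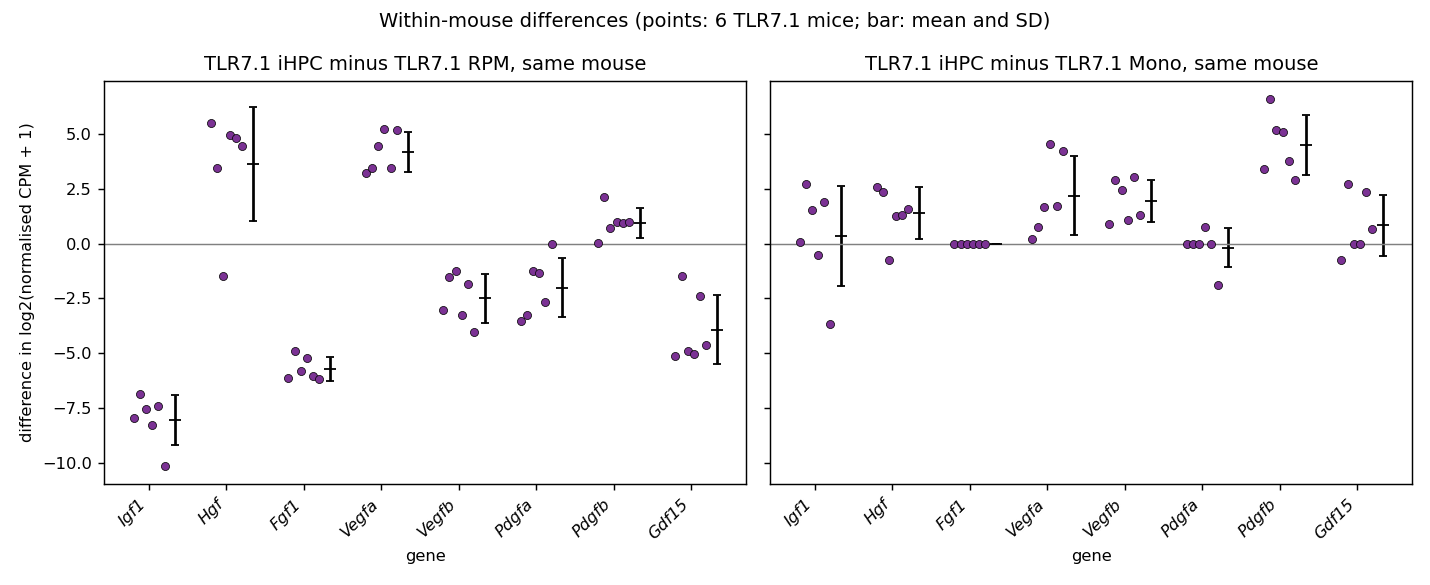
Difference between the iHPC library and the RPM library (left) or the Mono library (right) of the same mouse in log2(normalised CPM + 1), with 1 point for each of 6 TLR7.1 mice and a bar for the mean and SD. Igf1, Fgf1, Vegfb and Gdf15 lie below 0 against RPM in all mice, and Vegfa, Vegfb and Pdgfb lie above 0 against Mono in all mice.

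Receptors for these factors were few in the sorted cells. Of 18 receptor genes listed, 16 had a count and 5 passed the filter, namely Igf2r, Insr, Met, Flt1 and Nrp1. Igf1r, the receptor of IGF1, averaged between 0.632 CPM in iHPC and 3.04 CPM in WT Mono, and Insr, the insulin receptor, 38.6 CPM in iHPC, 57.9 CPM in TLR7.1 RPM and 50.3 CPM in TLR7.1 Mono. Igf2r, which takes up IGF2 and lysosomal enzymes, averaged 7.55 CPM in iHPC and 36.6 CPM in TLR7.1 RPM, a log2 fold change of -2.45 ± 0.77 (adjusted p = 0.0151, edgeR quasi-likelihood test) that was lost without mouse 24304. Met, the receptor of HGF, was a monocyte transcript, with 1.25 ± 2.67 CPM in iHPC and 45.8 ± 9.33 CPM in TLR7.1 Mono (log2 -5.13 ± 0.81, adjusted p = 4.6e-06). Flt1, the receptor of both VEGF ligands, was likewise 1.23 ± 1.69 CPM in iHPC and 25.2 ± 13.6 CPM in TLR7.1 Mono (log2 -3.96 ± 0.71, adjusted p = 3.06e-05). Nrp1 fell in iHPC, to 48.7 ± 34.2 CPM against 207 ± 80.1 CPM in TLR7.1 RPM (log2 -2.16 ± 0.34, adjusted p = 6.87e-06) and 177 ± 49.3 CPM in TLR7.1 Mono (adjusted p = 1.41e-05). Kdr, the other VEGFA receptor named above, did not pass the filter. It was highest in iHPC, at 7.69 ± 5.01 CPM, with 40 counts in 5 of 6 libraries. Its mean was 1.99 CPM in TLR7.1 RPM, 1.07 CPM in TLR7.1 Mono, 0 in WT RPM and 0.376 CPM in WT Mono. The FGF receptors Fgfr1 to Fgfr4, Gfral and Ret averaged at most 0.536 CPM in any group, and Pdgfra and Pdgfrb at most 4.17 CPM. Between genotypes 0 of the 5 tested receptors were called in either population by edgeR. At an unadjusted p under 0.05 there was 1 in RPM (Flt1) and 2 in Mono (Igf2r and Flt1), and DESeq2 called 0 in either population too.

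**Figure D4:**
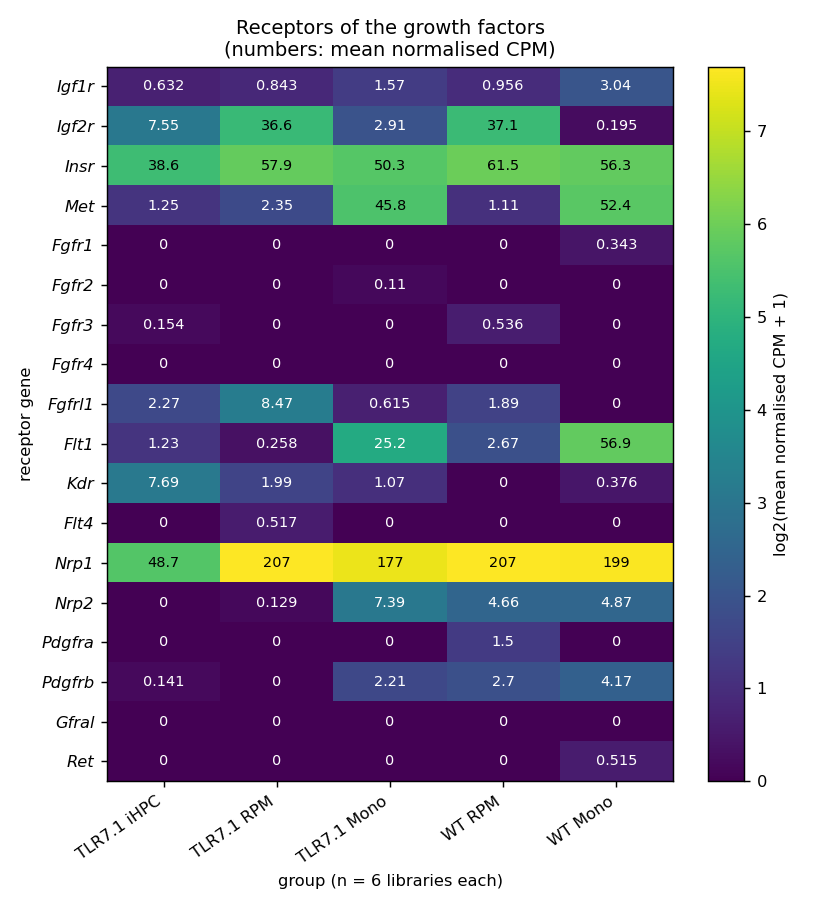
Mean normalised CPM (printed in each cell; colour as log2 of the mean + 1) of 18 receptor genes in the 5 groups of 6 libraries. Met and Flt1 are at 25.2 CPM or more in Mono and at 2.67 CPM or less in iHPC and RPM, and Nrp1 is lowest in iHPC.

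The wider pathway was read from 8 lists with 201 genes, of which 120 were tested. Between iHPC and TLR7.1 RPM, 21 were higher and 24 lower in iHPC at an adjusted p under 0.05, or 37.5% of those tested, where 27.1% of all genes were called. Among 14 genes that bind, activate or inhibit the factors, 2 rose and 5 fell. Htra1, a secreted protease, rose to 41.9 ± 12.4 CPM in iHPC, against 1.39 ± 2.79 CPM in TLR7.1 RPM (log2 4.40 ± 0.75, adjusted p = 4.01e-05). The heparan sulfate carriers Sdc3 (log2 -2.30 ± 0.26, adjusted p = 2.58e-08) and Sdc4 (log2 -1.79 ± 0.53, adjusted p = 0.0104) fell, and the Sdc4 call was lost without mouse 24304 or 24380. Of 9 other growth factor genes 1 rose and 4 fell. Kitl, the ligand of KIT, fell to 0.559 ± 1.37 CPM in iHPC, against 62.7 ± 36.04 CPM in TLR7.1 RPM (log2 -6.17 ± 0.76, adjusted p = 2.91e-07). Pdgfc fell to 20.7 ± 10.1 CPM in iHPC, against 60.7 ± 36.9 CPM in TLR7.1 RPM (log2 -1.61 ± 0.48, adjusted p = 0.0142), a call lost without mouse 24304. The list medians were -0.89 for binding and activation and -0.78 for other ligands on the log2 scale, beside -0.0047 for all genes.

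Signalling genes moved both ways between iHPC and TLR7.1 RPM. Of 36 genes of receptor kinase signalling 7 rose and 4 fell, and Sos1, the exchange factor that activates RAS, rose to 251 ± 43.8 CPM in iHPC, against 44.5 ± 22.6 CPM in TLR7.1 RPM (log2 2.52 ± 0.26, adjusted p = 3.37e-09). Of 6 feedback inhibitors Dusp5 rose (log2 2.45 ± 0.57, adjusted p = 0.00126) and Socs2, which restrains growth hormone signalling, fell (log2 -1.77 ± 0.53, adjusted p = 0.0112), a call lost without mouse 24261. Of 21 hypoxia response genes 4 rose and 1 fell. Ndrg1 was 44.0 ± 25.4 CPM in iHPC and 3.41 ± 3.51 CPM in TLR7.1 RPM (log2 3.62 ± 0.49, adjusted p = 6.49e-07), and Egln3, an oxygen sensor of the HIF pathway, was 41.6 ± 13.0 CPM in iHPC and 3.25 ± 3.78 CPM in TLR7.1 RPM (log2 3.42 ± 0.82, adjusted p = 0.00171). The list's median was -0.01, beside -0.0047 for all genes. Of 20 stress response genes 2 rose (Atf3 and Egr1) and 5 fell (Eif2ak2, Ppp1r15a, Asns, Sesn2 and Slc3a2). Atf3 was higher by 2.26 ± 0.27 on the log2 scale (adjusted p = 4.64e-08, edgeR). Asns was lower, at log2 -3.33 to -2.56 when any mouse was left out, and its call was lost without mouse 24261. The Sesn2 call was lost without mouse 24380. The list of the growth hormone and IL-4 route to Igf1 also holds the CSF1 ligand and receptor genes, Csf1 and Csf1r. Of its 9 tested genes 4 rose (Jak2, Stat3, Stat5b and Csf1) and 2 fell. The Csf1 call was lost without mouse 24107, 24304, 24308 or 24380. The ones that fell were Il13ra1, a subunit of the IL-4 and IL-13 receptor (log2 -2.51 ± 0.53, adjusted p = 4.11e-04), and Csf1r, the CSF1 receptor (log2 -1.39 ± 0.18, adjusted p = 3.09e-07).

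**Figure D5:**
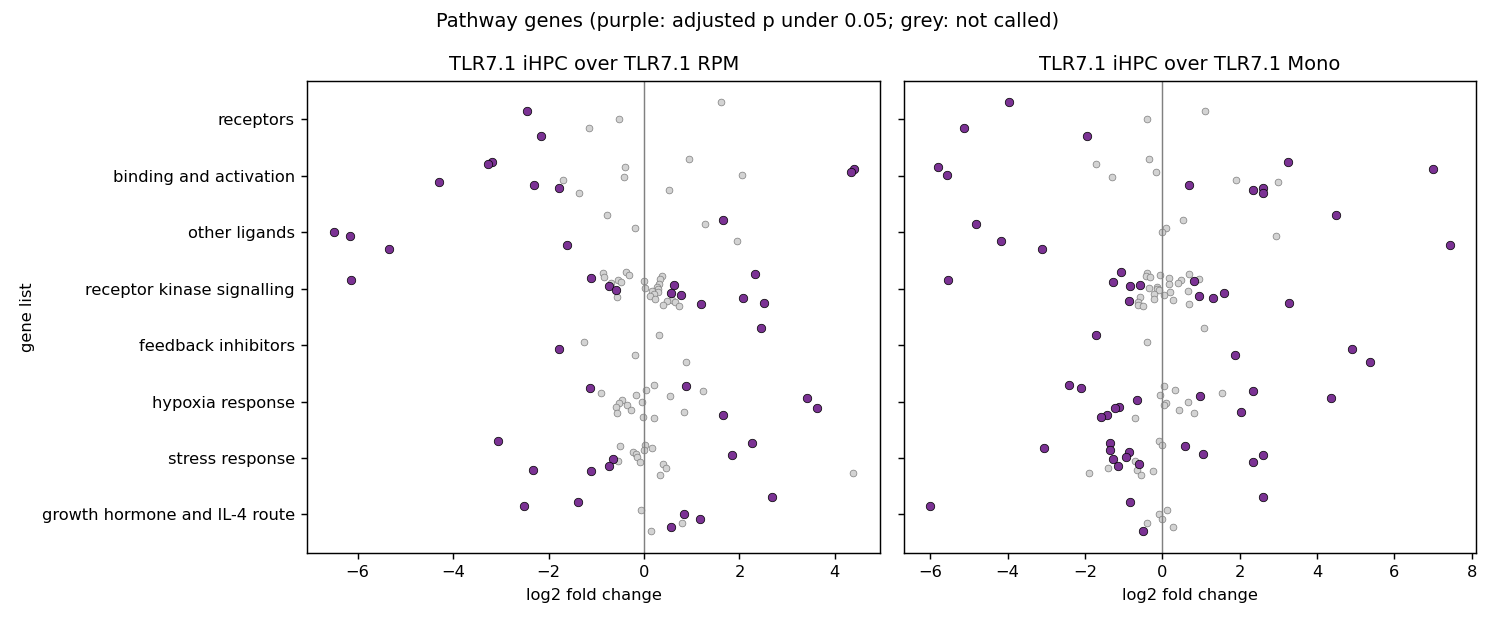
Log2 fold change of 120 tested pathway genes by list (rows), for iHPC over TLR7.1 RPM (left) and over TLR7.1 Mono (right), with genes called at an adjusted p under 0.05 in purple and the rest in grey. Calls lie on both sides of 0 in most lists, 21 higher and 24 lower against RPM and 25 higher and 33 lower against Mono.

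Against TLR7.1 Mono, 25 pathway genes rose and 33 fell in iHPC, or 48.3% of those tested, where 38.7% of all genes were called. Htra1 rose here too, with 2 counts in TLR7.1 Mono and a ratio of pooled CPM of 193 (95% counting interval 53.0 to 1606). Pdgfc, at 0 counts in TLR7.1 Mono, was at least 57.7-fold higher in iHPC, and Angptl4, a secreted inhibitor of lipoprotein lipase, rose by 4.48 ± 0.70 on the log2 scale (adjusted p = 3.77e-06). Nrg1, a ligand of ERBB receptors, fell (log2 -4.16 ± 0.76, adjusted p = 5.98e-05), as did the heparanase gene Hpse (log2 -5.80 ± 0.50, adjusted p = 2.66e-11). Il13ra1 fell to 5.71 ± 8.51 CPM in iHPC, against 399 ± 44.6 CPM in TLR7.1 Mono (log2 -6.01 ± 0.50, adjusted p = 1.22e-11). The feedback phosphatase gene Dusp6 fell (log2 -1.71 ± 0.26, adjusted p = 2.26e-06), and the RAS inhibitor gene Spred1 rose (log2 1.87 ± 0.27, adjusted p = 9.38e-07). Of 21 hypoxia response genes 4 rose, among them Egln3, and 7 fell, among them Ndrg1 and Pfkfb4. Of 20 stress response genes 4 rose and 8 fell, with Atf3 among the latter. Ndrg1 and Atf3 in iHPC were thus above TLR7.1 RPM but below TLR7.1 Mono.

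RPM and Mono differed in more of the pathway. In TLR7.1 mice 36 genes rose and 40 fell in RPM (63.3%, with 46.6% of all genes called), and in WT mice 31 rose and 33 fell (53.3%, with 46.2% of all genes called). Of 9 other growth factor genes, 5 rose and 2 (Gdf9 and Nrg1) fell in TLR7.1 RPM, and 6 rose and 2 (Gdf3 and Nrg1) fell in WT RPM. Pdgfc was at 0 counts in Mono of both genotypes and at least 192-fold higher in TLR7.1 RPM and at least 111-fold higher in WT RPM. Kitl was at least 203-fold higher in TLR7.1 RPM, and averaged 109 ± 45.8 CPM in WT RPM and 0.545 ± 1.33 CPM in WT Mono (log2 7.38 ± 0.75, adjusted p = 3.01e-09). Socs2 was another RPM transcript, with 103 counts in TLR7.1 RPM and 1 count in TLR7.1 Mono, a ratio of 212 (95% counting interval 37.2 to 8457). Ndrg1 and Pfkfb4 of the hypoxia list and Atf3 and Cdkn1a of the stress list were lower in RPM of both genotypes.

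Between genotypes the pathway differed in few genes. In RPM 5 genes rose and 7 fell in TLR7.1 mice (10% of those tested, with 8.25% of all genes called). In a fit of the RPM libraries alone these 12 calls became 2, and the 910 calls over all genes became 160. After thinning 4 pathway genes were called. Dusp6, a target and brake of ERK signalling, fell to 54.9 ± 27.2 CPM in TLR7.1 RPM against 161 ± 52.8 CPM in WT RPM (log2 -1.59 ± 0.28, adjusted p = 4.64e-04). It fell in TLR7.1 Mono too, to 211 ± 51.0 CPM against 482 ± 94.3 CPM in WT Mono (log2 -1.19 ± 0.24, adjusted p = 0.00249), and kept both calls whichever mouse was left out. Pik3r1, a regulatory subunit of PI3 kinase, fell in RPM (log2 -0.87 ± 0.18, adjusted p = 0.00259), a call lost in a fit of the RPM libraries alone and after thinning, as did Il13ra1 (log2 -1.59 ± 0.42, adjusted p = 0.0157), whose call was lost in the fit of RPM alone and without mouse 24214 or 24416. Cdkn1a, a cell cycle brake, rose in TLR7.1 RPM, with 122 counts against 18 in WT RPM (log2 2.33 ± 0.60, adjusted p = 0.0123), and this call was lost without mouse 24107, with mouse as a random term and after thinning. The RPM library of mouse 24107 had a sum of 6 T and NK cell markers of 919 CPM, against 4.12 to 251 CPM in the other 5 TLR7.1 RPM libraries, and the part of these cells was not tested. Without mouse 24214 the 12 calls in RPM became 6, and without mouse 24415 they became 7. In Mono 2 genes were called (1.67% of those tested, with 2.1% of all genes), Dusp6 and Igfbp6, an IGF binding protein gene. Igfbp6 rose to 22.3 ± 6.35 CPM in TLR7.1 Mono against 4.73 ± 1.90 CPM in WT Mono (log2 2.22 ± 0.58, adjusted p = 0.0335). All 6 TLR7.1 Mono libraries were above all WT ones, but the call was lost when any of 10 of the 12 mice was left out. With mouse as a random term 5 genes were called in Mono, and in the fit of the Mono libraries alone 9.

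The effect of genotype differed between RPM and Mono for 1 pathway gene (0.833% of those tested, with 0.689% of all genes called). Ppp1r15a, which encodes the stress-induced GADD34 subunit of an eIF2alpha phosphatase, was 145 ± 35.8 CPM in TLR7.1 RPM and 58.2 ± 37.9 CPM in WT RPM. The log2 genotype effect was larger in RPM than in Mono by 1.64 ± 0.36 (adjusted p = 0.0209). This call was lost without mouse 24261, 24304, 24415 or 24416, and with mouse as a random term 3 genes were called. The fold changes of the 8 growth factors between genotypes were not alike in RPM and Mono for every gene, and these differences were not tested. Pdgfb was lower in TLR7.1 mice, with log2 fold changes of -0.54 ± 0.48 in RPM and -1.36 ± 0.54 in Mono, and Vegfb was higher, with 0.91 ± 0.42 in RPM and 1.41 ± 0.58 in Mono. Hgf was lower, with -1.45 ± 0.77 in RPM and -0.81 ± 0.58 in Mono, and without mouse 24261 the RPM value was -2.91. Igf1 had -0.40 ± 0.26 in RPM and -0.12 ± 0.54 in Mono. Gdf15 had -0.75 ± 0.77 in RPM and -2.87 ± 1.19 in Mono, where 22 of the 25 WT counts were in mouse 24028 and the value without that mouse was -0.15. Pdgfa, at -2.46 ± 0.71 in RPM, held 3 counts in TLR7.1 Mono and 1 in WT Mono, too few for a fold. Vegfa, at 0 counts in TLR7.1 RPM, was at least 4.55-fold lower there than in WT RPM by pooled counts, a floor that leaves out the spread between mice. The 11 WT RPM counts were all in mice 24028 and 24117, collected on 13 December, and the WT RPM median was 0 CPM. In Mono the log2 fold change of Vegfa was 0.22 ± 0.72 in the fit without the filter. Fgf1 had -0.60 ± 0.61 in RPM, and in Mono, where TLR7.1 libraries held 0 counts, it was at least 4.42-fold lower than in WT, whose 13 counts were all in mouse 24214. Except for Pdgfa in RPM, the ranges of all 8 genes overlapped between genotypes in both populations.

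Genes whose pattern was most like that of each growth factor were ranked by the Pearson correlation of log2(CPM + 1) over the 30 libraries. These libraries come from 12 mice and fall into 5 groups, so the values mostly describe the group pattern and carry no test. For Igf1 the closest were Crip2, Gfra2, Slco2b1, Timd4 and Vstm4 (r of 0.974 to 0.976), and Timd4, a phosphatidylserine receptor gene, averaged 140.0 CPM in TLR7.1 RPM and had 0 counts in iHPC. Fgf1 shared Gfra2, Timd4 and Vstm4 with Igf1 and added Col14a1 and Scamp5 (0.965 to 0.972). Vegfb was closest to Fblim1 (0.953) and Cela1 (0.948), and Gdf15 to Fcna (0.904) and Slco2b1 (0.901), with Igf1 and the heme oxygenase gene Hmox1 next. Pdgfa was closest to Mmp13 and Ptgis, at 0.916 each. Mmp13, a collagenase gene, averaged 6.05 CPM in TLR7.1 RPM and 41.0 CPM in WT RPM, and Ptgis, the prostacyclin synthase gene, 35.3 CPM in TLR7.1 RPM and 207 CPM in WT RPM. Pdgfb was closest to Zbtb4 (0.914) and Tgfbr2 (0.899), followed by Nr1h3, which encodes the liver X receptor alpha. The values were lower for the iHPC transcripts, where Hgf was closest to Dock10 (0.861) and Vegfa to Irak3 (0.831), an inhibitor of Toll-like receptor signalling.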

How the data were processed

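RNA was sequenced from 30 libraries of 500 sorted cells (SMART-Seq v4 cDNA, Nextera XT), per the labels' protocols. The deposited table holds raw read counts per Ensembl gene, and the submitters' processing notes list HTSeq 0.4.1, TopHat, Bowtie, SAMtools, Picard, FastQC and CASAVA 1.8.2, with build NCBIM37. The annotation release, strand setting and any read filter were not stated in those sources. Symbols and exon lengths came from GENCODE M21 (GRCm38), so gene coordinates are not given, and 32919 of 37991 identifiers had a symbol.

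All genes kept by filterByExpr (11030) were fitted with TMM scaling and a robust quasi-likelihood model with 1 mean per group (edgeR 4.0.16, limma 3.58.1, R 4.3.3). The fit was also run on simulated counts with some genes changed in iHPC alone and no mouse effect. That run does not cover the pairing by mouse or the many differences between these groups, and nothing is read from it here. Tests were two-sided with Benjamini-Hochberg adjustment over all genes tested. The SE after a log2 fold change is its absolute value divided by the square root of the quasi-likelihood F statistic. It was thus derived from that statistic and not estimated apart, and for the 8 genes it is given as a description. Vegfa values come from the fit without the filter. The 8 genes and all lists were chosen with earlier results of these data known. Named pathway genes are taken from up to 3 called genes per list and comparison with the largest change and at least 20 CPM in the higher group. Mice gave several libraries each, so the mouse pairs them. Deviations of libraries of the same mouse correlated by -0.08 to 0.196 over 24 pairs, with a median of 0.0365. Alternatives were DESeq2 (1.42.0), its size factors, no filter, mouse as a fixed or random term, fewer groups, collection date, thinning to 95002 counts, and leaving out each mouse. The quoted p-values come from the fit with no mouse term. They measure the spread between libraries within groups, 6 in each group, and do not use the pairing by mouse. Motif windows came from RefSeq.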

Additional observations from a re-analysis of the deposited data

Results flagged for a closer look

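In 11 of 37 sets of 6 libraries, 1 library stood far from the other 5 for a growth factor gene. Chance places about 1 in 20 sets of continuous values so, but that rate does not hold for sets near 0 counts, and the 11 are not read against it. In 4 of them (Fgf1 in WT Mono, and Pdgfa in iHPC, in TLR7.1 Mono and in WT Mono) all counts were in 1 library, which puts it apart whatever its level. In TLR7.1 Mono, mouse 24380 was apart for Igf1 (11.7 CPM), Pdgfa (2.70 CPM) and Gdf15 (1.802 CPM), and mouse 24068 for Vegfb (8.59 CPM). In TLR7.1 RPM, mouse 24261 was apart for Hgf (9.61 CPM) and mouse 24380 for Gdf15 (112 CPM). Without the library of mouse 24380 Gdf15 averaged 27.6 ± 6.62 CPM (SD, n = 5) in TLR7.1 RPM. In iHPC, mouse 24304 was apart for Pdgfa (0.671 CPM, 1 count) and mouse 24308 for Pdgfb (149 CPM). The other 5 iHPC libraries had 90.6 ± 6.72 CPM of Pdgfb. In WT Mono, mouse 24214 was apart for Fgf1 (6.70 CPM) and Pdgfa (0.515 CPM, 1 count), and mouse 24028 for Gdf15 (18.8 CPM).

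The effect of genotype on Ppp1r15a differed between RPM and Mono, with an interaction of 1.64 ± 0.36 on the log2 scale (adjusted p = 0.0209, edgeR).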

How the results depend on the processing

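No called result changed sign under the alternatives run. Thinning to 95002 counts left 10 pathway calls for iHPC over TLR7.1 RPM, 22 for iHPC over TLR7.1 Mono, 28 and 24 for RPM over Mono in TLR7.1 and WT mice, 4 and 1 for TLR7.1 over WT in RPM and Mono, and 0 for the interaction. Fits of the groups compared alone gave 25 for iHPC over RPM, 49 for TLR7.1 RPM over Mono, 2 between genotypes in RPM and 9 in Mono. Between genotypes in Mono, no filter and collection date as a term each gave 1. DESeq2 gave 2 for the interaction. With the mouse as a random replicate block the counts were 5 between genotypes in Mono and 3 for the interaction, and as a fixed block 37 for iHPC over RPM. The fixed block cannot be fitted for comparisons between genotypes. The block moved no other count of pathway calls by over 1.5 times, but among named genes it ended the calls of Sesn2 and Gdf3 in iHPC over RPM, Csf1 in iHPC over either population, Errfi1 in WT RPM over Mono, and Cdkn1a and Atf3 between genotypes in RPM. Leaving out 1 mouse at a time gave 34 to 47 calls for iHPC over RPM, 50 to 60 for iHPC over Mono, 62 to 78 and 61 to 69 for RPM over Mono in TLR7.1 and WT mice, 6 to 17 and 1 to 2 between genotypes in RPM and Mono, and 0 to 2 for the interaction. Over all genes tested, thinning gave 1141 calls in place of 2993 for iHPC over RPM, and fits of the groups alone gave 160 in place of 910 between genotypes in RPM and 737 in place of 232 in Mono.

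Among the growth factors, Hgf (without mouse 24261), Fgf1 and Pdgfa (mouse 24214), Pdgfa (24304 or 24380) and Gdf15 (24028) moved beyond their spread when the named mouse was left out. Gdf15 for WT RPM over WT Mono was 6.74 on the log2 scale without mouse 24028, in place of 4.34, and TLR7.1 over WT in Mono was -0.15 in place of -2.87. Fitted values of genes at 0 counts depend on the prior and are not quoted. Depth limits the genes with few counts: in TLR7.1 RPM Vegfa rested on 0, Hgf on 10 and Pdgfa on 24, and thinning ended the separation of Vegfa and Vegfb in iHPC from both other populations and that of Pdgfa between genotypes in RPM.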
